A study of Homo sapiens with 3 samples.

Results

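Cytosolic ribosomal protein genes were followed through 3 lists of RNA peaks crosslinked to CSTF2tau. The set holds 60 Ensembl gene IDs chosen by gene family: 31 genes of the small subunit (RPS genes, RPSA included) and 29 of the large subunit (RPL and RPLP genes). Of these, 58 had at least 1 peak, among 13356 gene IDs listed in all, and 2 small subunit IDs (ENSG00000184779 and ENSG00000231500) had none. All libraries came from BE(2)-C, an established human neuroblastoma cell line, labelled WT and given no treatment in the labels. The method was sCLIP, in which ultraviolet light fixes protein to RNA in living cells, a nuclease trims the RNA, and pieces bound by an antibody against CSTF2tau are sequenced. There was 1 group of 3 biological replicates and no control antibody or input library was used here, so replicates were compared with each other and p-values compare libraries, not conditions.

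A ribosome is built from a small subunit, which reads the messenger RNA, and a large subunit, which joins amino acids, and each subunit carries its own set of proteins on ribosomal RNA. The genes for these proteins are short, are transcribed strongly in growing cells, and many begin with an unbroken pyrimidine run at the transcription start, the 5′ terminal oligopyrimidine (TOP) motif, through which translation is regulated. Many also carry small nucleolar RNA (snoRNA) genes in their introns. CSTF2tau is the paralogue of CSTF2, the subunit through which the cleavage stimulation factor holds RNA, and CSTF2 binds downstream of the cleavage site when messenger RNA 3′ ends are made. The genome holds many processed copies of ribosomal protein genes, and how reads shared with such copies were placed was not given in the sources used here, so every read value below is uncertain to that extent. In these bulk libraries, fewer cells and less RNA per cell cannot be told apart, nor can more RNA and more crosslinking.

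The starts of the members with most reads show what the family shares. They are printed from RefSeq (GRCh38.p14), 12 bases before the annotated gene start and 18 from it on, on the strand of the gene. Capitals mark the run of C and T that begins at the first transcribed base.
RPS9, chr19:54200846-54200875, plus strand: gcgcttccgcgcCTCTTTCTCagtgaccgg
RPS19, chr19:41860243-41860272, plus strand: aaccccgtcgttCCCTTTCCCCTggctggc
RPL13A, chr19:49487596-49487625, plus strand: caaaacctcctcCTTTTCCaagcggctgcc
RPL3, chr22:39319606-39319635, minus strand: aggccgaccggcCTCTaccggcgggatttg
RPS24, chr10:78033851-78033880, plus strand: cgaatcgtggttCTCTTTTCCTCCTTggct
RPS3, chr11:75399506-75399535, plus strand: cgcgagccacttCCTTTCCTTTCagcggag
RPL11, chr1:23691794-23691823, plus strand: aagctccgctttCTCTTCCTgctctccatc
RPS29, chr14:49598693-49598722, minus strand: cgagcgcgcagcTggcagcggtggttgttt

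The run is 9 bases long in RPS9, 11 in RPS19 and in RPS3, 7 in RPL13A, 14 in RPS24 and 8 in RPL11. It stops after 4 bases in RPL3 and after 1 in RPS29. Promoter sequence was matched for 45 of the 58 members with a peak. A C at the start followed by 4 or more pyrimidines, searched on the gene's strand only, was present in 32 of the 45 (71.1%), with a median run of 8 bases and a range of 6 to 16. Over 27305 RefSeq genes the share was 5.14%. Where a gene had several annotated starts, the one with the longest qualifying run was taken. Over all 35116 starts the share was 4.07%. Members with such a start had a median share of reads of 0.00457% and members without it 0.00531%. A match is a description of these letters and was taken from annotated starts, which need not be the starts used in BE(2)-C cells.

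**Figure D1:**
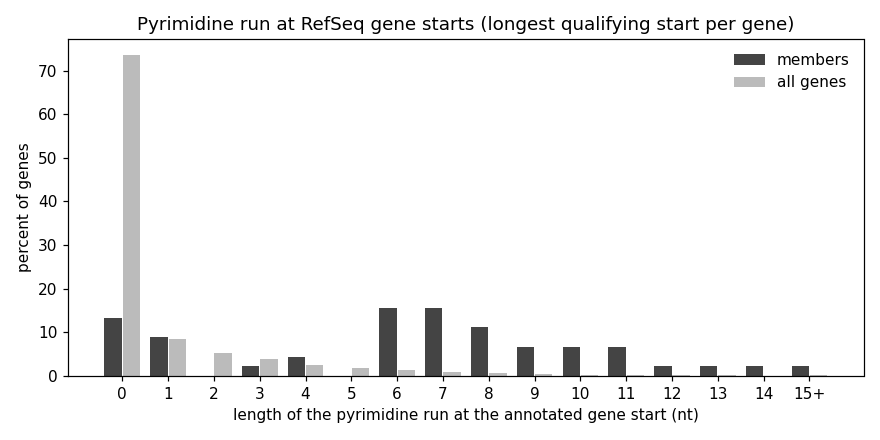
Length in nucleotides of the pyrimidine run that begins at the RefSeq gene start (x axis) against the percent of genes (y axis), for 45 members (dark bars) and 27305 genes (light bars). Each gene is shown by its annotated start with the longest qualifying run. Runs of 6 bases or more hold 71.1% of the members, and most other genes stand at 0.

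Across the lists the members held 263 peaks with 2527 reads in replicate 1, 150 peaks with 1378 reads in replicate 2, and 119 peaks with 757 reads in replicate 3. Their share of listed reads was 0.343% (95% exact Clopper-Pearson interval 0.330% to 0.357%) in replicate 1, 1.27% (1.20% to 1.34%) in replicate 2 and 0.195% (0.182% to 0.210%) in replicate 3. The mean was 0.603% ± 0.583 (SD, n = 3), so the spread between replicates was nearly as large as the mean. Replicate 2 stood 3.70-fold above replicate 1 and 6.51-fold above replicate 3, and replicate 1 stood 1.76-fold above replicate 3. Without replicate 2 the mean share was 0.269%. These totals count reads inside listed peaks, 736059, 108434 and 387784 in replicates 1 to 3, and are not the sequencing depth; replicate 2 is the smallest list. Intervals cover counting error only, because reads need not be independent molecules.

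Small subunit members held 57.0%, 66.7% and 58.8% of member reads in replicates 1, 2 and 3. This rested on RPS9 and RPS19: without them, an alternative added after the data were seen, the small subunit held 51.5%, 47.1% and 51.3%, and in replicate 2 its 409 reads fell short of the large subunit's 459. As a share of all listed reads the small subunit stood at 0.196%, 0.848% and 0.115%, and the large subunit at 0.148%, 0.423% and 0.0805%. Both subunits followed the same order of replicates. The median share per member was 0.00594% for 29 small subunit members and 0.00422% for 29 large subunit members.

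Most members came back in every replicate: 35 of 60 (58.3%) had a peak in all 3 lists, where the background was 33% of all gene IDs. Another 18 were listed in 2 replicates and 5 in 1. The 5 listed in 1 replicate were all in replicate 1, the largest list, among them RPL14, RPSA, RPS26 and RPS27A. A member with a peak had a median of 51 reads over the replicates, against 25 for all gene IDs, and a median mean share of 0.00492% against 0.00195%. The median number of loci, meaning peaks merged where they overlapped on a strand over the replicates, was 5 in both sets. The sets were not matched on reads, and a gene ID with more reads can be listed in more replicates.

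**Figure D2:**
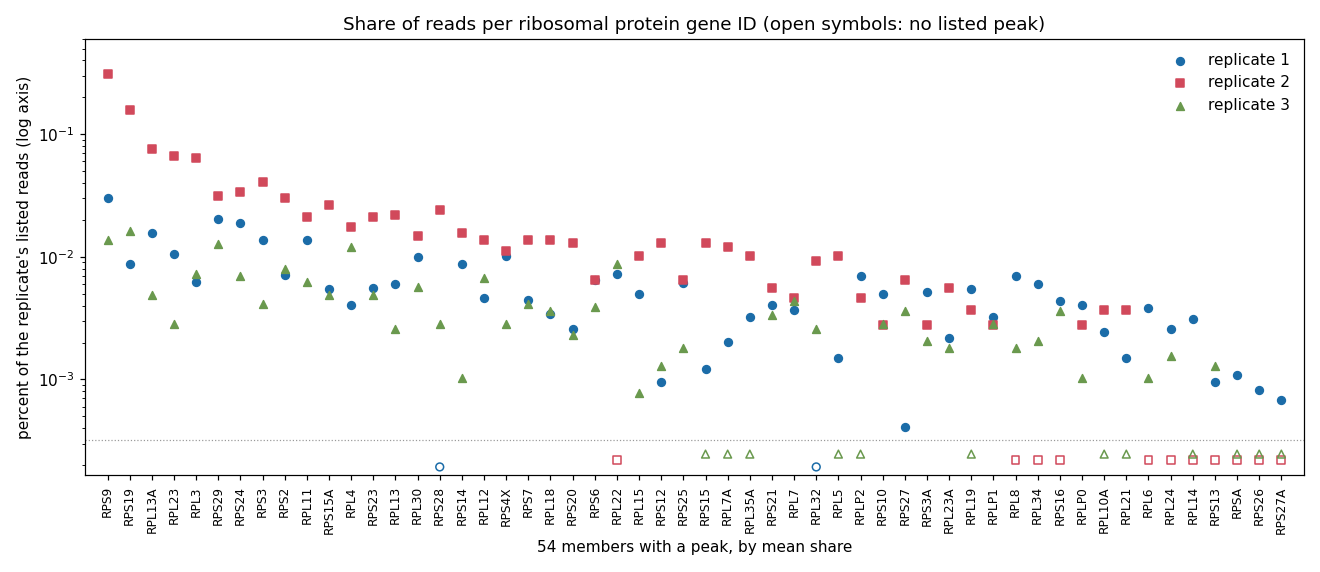
Share of each replicate's listed reads, in percent on a log axis, for 54 of the 58 members with a peak, ordered by mean share. Open symbols below the dotted line mark replicates with no listed peak; replicate 2 (squares) is the highest for most members, and RPS9 and RPS19 lead in it.

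Among small subunit genes RPS9 stood first. RPS9 (ENSG00000170889), whose protein lies near the channel through which messenger RNA enters the ribosome, had 221 reads in 28 peaks in replicate 1, 339 reads in 32 peaks in replicate 2 and 53 reads in 6 peaks in replicate 3. These are shares of 0.0300%, 0.313% and 0.0137%, a mean of 0.119% ± 0.168 (SD, n = 3), which ranked 84 among all gene IDs. RPS9 alone held 8.75%, 24.6% and 7.0% of the member reads in replicates 1, 2 and 3. Replicate 2 stood 10.4-fold above replicate 1 and 22.9-fold above replicate 3 (adjusted p = 2.9e-161 for the latter, Fisher's exact test with Benjamini-Hochberg adjustment). Peaks listed under RPS9 covered 17015 nt in 39 loci, while RefSeq gives the gene a length of 6790 nt, so the listed ID reaches beyond the RefSeq gene.

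RPS19 (ENSG00000105372), needed for maturation of the small subunit's RNA and mutated in Diamond-Blackfan anaemia, had 64, 171 and 63 reads in replicates 1, 2 and 3. Replicates 1 and 3 stood at 0.00869% and 0.0162%. They differed 1.87-fold (adjusted p = 0.0018, Fisher's exact test), which is under the 2-fold limit for a call. Replicate 2 stood apart at 0.158%, 18.1-fold above replicate 1 (adjusted p = 7.2e-96, Fisher's exact test). RPS9 and RPS19 together held 11.3%, 37.0% and 15.3% of member reads. Without them the members' share was 0.305%, 0.800% and 0.165%, in the same order of replicates.

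RPS29 (ENSG00000213741), a small zinc-binding protein of the small subunit, was among the steadier members, with 150, 34 and 49 reads and shares of 0.0204%, 0.0314% and 0.0126%. RPS24 (ENSG00000138326), another Diamond-Blackfan gene, had 140, 37 and 27 reads, or 0.0190%, 0.0341% and 0.00696%. Both were called only against replicate 3: RPS29 was 2.48-fold higher in replicate 2 than in replicate 3, and RPS24 was 4.90-fold higher in replicate 2 and 2.73-fold higher in replicate 1.

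RPS3 (ENSG00000149273), at the messenger RNA entry, had 102, 44 and 16 reads and separated all 3 replicates, with replicate 2 higher than replicate 3 by 9.83-fold (adjusted p = 7.8e-16, Fisher's exact test). RPS2 (ENSG00000140988), its neighbour in the subunit, had 52, 33 and 31 reads. RPS15A (ENSG00000134419) had 40, 29 and 19 reads, and RPS23 (ENSG00000186468), a protein of the decoding centre, 41, 23 and 19. In RPS2, RPS15A and RPS23 replicate 2 was above both others by 3.81-fold to 5.46-fold, and replicates 1 and 3 were not called different.

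The smallest adjusted p-values also brought in small subunit members with few reads. RPS28 (ENSG00000233927) had no peak in replicate 1 and 26 and 11 reads in replicates 2 and 3 (adjusted p = 3.0e-22 for replicate 2 against replicate 1, Fisher's exact test). RPS15 (ENSG00000115268), whose tail reaches the decoding site, had 9, 14 and 0 reads (adjusted p = 6.6e-09 for replicate 2 against replicate 3, Fisher's exact test). No fold is given against a replicate with no peak, because the lists hold no peak under 3 reads. Fisher's exact tests here and below entered such a replicate at 0 reads. Unlisted reads may exist there, so those p-values may be too small.

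In the large subunit RPL13A led. RPL13A (ENSG00000142541), a host of several snoRNA genes, had 116, 83 and 19 reads and shares of 0.0158%, 0.0765% and 0.00490%. Replicate 2 was 4.86-fold above replicate 1 and 15.6-fold above replicate 3 (adjusted p = 2.8e-35 for the latter, Fisher's exact test). RPL23 (ENSG00000125691), which can also bind the p53 regulator MDM2, had 77, 72 and 11 reads, and replicate 2 at 0.0664% was 23.4-fold above replicate 3 (adjusted p = 2.7e-34, Fisher's exact test). RPL3 (ENSG00000100316), which helps to shape the peptidyl transferase centre, had 46, 70 and 28 reads, and replicate 2 at 0.0646% was 10.3-fold above replicate 1 (adjusted p = 3.1e-31, Fisher's exact test), while replicates 1 and 3 differed 1.16-fold.

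RPL11 (ENSG00000142676), a partner of RPL5 and 5S ribosomal RNA, had 102, 23 and 24 reads and was called lower in replicate 3 than in both others. RPL4 (ENSG00000174444), part of the peptide exit tunnel, was the one named large subunit gene with its most reads in replicate 3: it had 30, 19 and 47 reads, or 0.00408%, 0.0175% and 0.0121%, and replicate 1 was the low library. RPLP2 (ENSG00000177600), of the stalk that recruits elongation factors, had 51, 5 and 0 reads (adjusted p = 6.9e-09 for replicate 1 against replicate 3, Fisher's exact test).

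A few members had similar shares in all 3 libraries. RPLP1, the partner of RPLP2 in the stalk, had 24, 3 and 11 reads, which are shares of 0.00326%, 0.00277% and 0.00284%. RPL7 had 27, 5 and 17 reads, or 0.00367%, 0.00461% and 0.00438%. RPS6, the substrate of S6 kinase, stood at 0.00652%, 0.00646% and 0.00387%. Counts this small leave wide intervals, so an absent call does not show equal levels. RPLP1, RPL7 and RPS6 were picked here after their values were seen, for their small spread.

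Over the whole set, 55 members had enough reads to test (10 in a pair of replicates together), and 45 were called between at least 1 pair, at an adjusted p below 0.05 and a 2-fold difference. The background was 61.9% of the 9440 gene IDs tested the same way. By direction the members' counts lay further from the background. Replicate 2 was called above replicate 1 for 25 of 54 members, against 14.2% of all gene IDs, and the opposite for 3, against 18.8%. Replicate 2 was called above replicate 3 for 30 of 43 members, against 14.4%, and the opposite for 1, against 27.2%. Replicate 1 was called above replicate 3 for 25 of 54 members, against 16.7%, and the opposite for 4, against 27.1%.

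The median log2 ratio of shares over tested members was 1.16 for replicate 2 over 1, where all gene IDs stood at 0.10. It was -0.89 for replicate 3 over 1 against 0.22, and -1.96 for replicate 3 over 2 against 0.38, with a gene ID without a peak entered at 3 reads. Replicate 2 gave the highest share for 38 of 58 members (65.5%) and for 18.95% of all gene IDs; replicate 3 gave it for 2 members (3.45%) and for 46.1% of all gene IDs. The 3 pairs share libraries, so their counts are not independent of each other. A further setting counted each peak once in place of its reads. Only 8, 6 and 8 members could then be tested between replicates 1 and 2, 2 and 3, and 1 and 3, and 5 were called. Of these, 4 were higher in replicate 2 than in replicate 1, against 5.77% of all gene IDs, and 0 the opposite, against 2.02%. Higher in replicate 2 than in replicate 3 were 4, against 7.89%, and 0 the opposite, against 2.46%. Higher in replicate 1 than in replicate 3 was 1, against 5.003%, and 0 the opposite, against 7.28%. Without replicate 2, 29 members were called: 25 higher in replicate 1 and 4 in replicate 3, against 16.8% and 27.5% of all gene IDs. Without replicate 3, 28 were called: 25 higher in replicate 2 and 3 in replicate 1, against 13.9% and 18.6%. Whether the size of the lists or the authors' peak calling had a part in the differences was not tested.

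**Figure D3:**
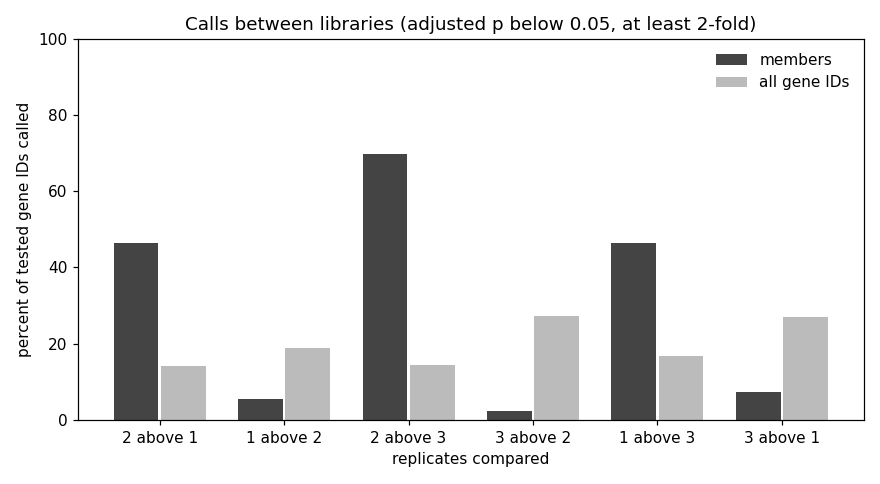
Percent of tested gene IDs called higher in the first-named replicate than in the second (y axis), for members (dark bars) and all gene IDs (light bars), in both directions for the 3 pairs. The dark bars are high where replicate 2 stands above replicates 1 and 3 and where replicate 1 stands above 3, and low in the opposite directions.

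At the level of exact places, most member loci were seen once. Of 410 member loci, 322 were seen in 1 replicate, 78 in 2 and 10 in all 3, so 21.5% (95% exact interval 17.6% to 25.8%) were in 2 or more, against 8.57% of 172167 loci. Among loci with 10 reads or more the shares were closer, 51.7% against 38.8%, and with 20 reads or more 70.4% against 61.7%. The 88 recurring loci lay in 39 members and held 30.6%, 65.2% and 61.4% of member reads in replicates 1, 2 and 3. The densest stretch of a peak, up to 4 nt wide in the authors' lists, fell within 20 nt between replicates at 36 of the 88. Its median spread was 24.5 nt in members and 25 nt over all recurring loci.

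Median widths were 85, 77 and 74 nt in replicates 1, 2 and 3, against 79, 72 and 69 nt over all peaks, and median reads were 7, 6 and 5 against 5, 4 and 4. Peaks of 20 reads or more made up 7.22%, 6.67% and 1.68% of member peaks, against 3.57%, 2.10% and 0.653% of all peaks.

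RPS9 held 3 of the 10 loci seen in every replicate, all given here in hg19. The tallest, at chr19:54711520-54711628 on the plus strand, had 4 reads in replicate 1, 104 in replicate 2 and 10 in replicate 3, and the densest stretches lay within 5 nt of each other. It holds the tallest member peak in the lists, with 98 reads. Another RPS9 locus, at chr19:54707010-54707161, had 28, 4 and 20 reads, and the last, at chr19:54715256-54715382, had 3, 8 and 3. As shares of each list, replicate 2 stood apart at the tallest of these, with 0.0959% against 0.000543% and 0.00258% in replicates 1 and 3, while the next was similar in all 3, at 0.00380%, 0.00369% and 0.00516%. In the peak maps the RPS9 reads of replicate 2 cluster upstream of the middle of the listed span. That span runs past the RefSeq gene, so this does not place the reads within the gene.

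RPL13A had 47, 57 and 12 reads at chr19:49995096-49995234 on the plus strand, a place high in every replicate for its size. RPS15A had 5, 12 and 4 reads at chr16:18794522-18794664 and RPS29 8, 5 and 19 at chr14:50049502-50049666, both on the minus strand. RPL13 had 33, 8 and 3 reads at chr16:89629636-89629820 on the plus strand. RPS10 had 8, 3 and 5 reads at chr6:34386328-34386479 on the minus strand and RPS19 7, 3 and 4 at chr19:42372547-42372648 on the plus strand. RPL7 had 11, 5 and 14 reads at the remaining locus. Its midpoint lay 60 nt from the 3′ end of the listed span, an end that this locus of 120 nt itself sets.

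**Figure D4:**
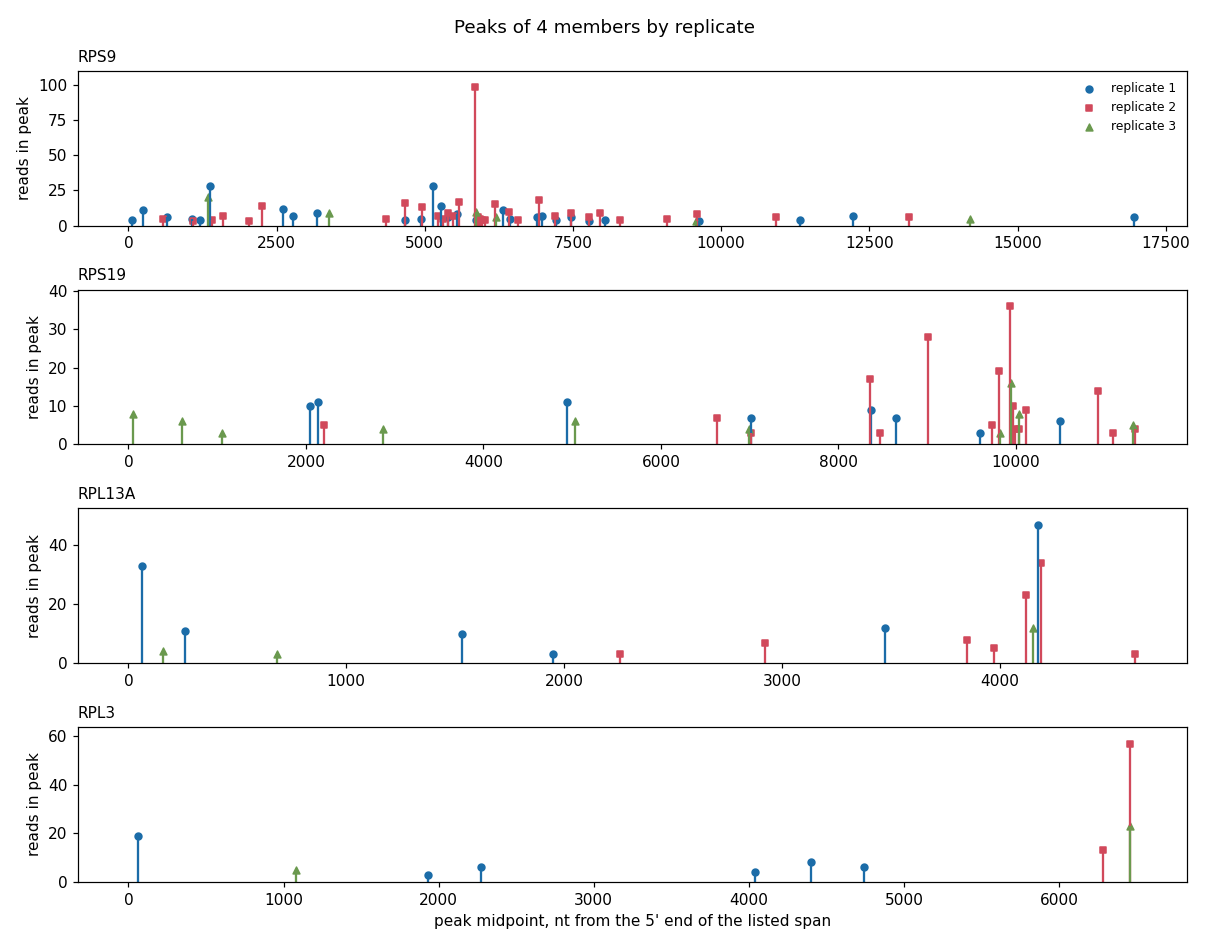
Reads in each peak (y axis) against the distance in nucleotides of its midpoint from the 5′ end of the listed span (x axis), for RPS9, RPS19, RPL13A and RPL3, coloured by replicate. The tall replicate 2 peak of RPS9 has 98 reads, and the RPL3 peaks of replicates 2 and 3 stand together at the 3′ edge, with none of replicate 1 there.

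Because CSTF2tau belongs to the machinery that forms 3′ ends, peaks at the 3′ edge were separated from the rest by position. The listed span of a gene ID covers all its peaks in the 3 lists and is not an annotated transcript. The median member span was 2980 nt and 0.712 of the RefSeq gene length. A span begins and ends at the outermost listed peaks, so the outermost locus lies near an end by construction. The counts below therefore describe which loci near the edge of the span recurred. They do not place a locus at the 3′ end of the gene. Of the 88 recurring member loci, 16 had their midpoint within 100 nt of the 3′ end of the span, a distance chosen after the data were seen, and 0 within 100 nt of the 5′ end. Over all gene IDs 4.84% of recurring loci lay that close to the 3′ end and 3.75% to the 5′ end, but many of those gene IDs span far more than members do. The 16 loci belonged to 16 members, and all 16 were listed in replicate 2, 15 of them in replicate 3 and only 3 in replicate 1. Over all gene IDs there were 755 such loci, of which replicate 1 listed 65.8%, replicate 2 54.6% and replicate 3 85.3%.

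The tallest of these loci was in RPL3, at chr22:39708793-39708888 on the minus strand, with 0, 57 and 23 reads. Its midpoint lay 48.0 nt from the end of the span, an end that this locus of 96 nt itself sets. RPS2 had 0, 16 and 18 reads, RPL12 0, 15 and 4, and RPL11 0, 15 and 3. RPS12, RPS7, RPL32, RPS27 and RPS28 followed with 6 to 14 reads in replicate 2, 5 to 11 in replicate 3 and no peak in replicate 1. These members were listed here because of where their loci lie, after the values were seen. Of the 78 member loci seen in exactly 2 replicates, 30 joined replicates 1 and 2, or 38.5%, against 19.9% of 13227 over all gene IDs. Replicates 2 and 3 were joined by 25, or 32.1%, against 11.7%, and replicates 1 and 3 by 23, or 29.5%, against 68.5%. Of the 25, 13 lay within 100 nt of the 3′ end, against 1 of the 30 that joined replicates 1 and 2 and 0 of the 23 that joined 1 and 3. This split was not computed over all gene IDs, so it has no background and cannot be called particular to members.

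Counted by reads, the ends of the pooled span also differed between replicates. For the 35 members with at least 5 loci, the first 10% of the span held 22.9%, 2.39% and 10.8% of reads in replicates 1, 2 and 3, and the last 10% held 13.6%, 27.1% and 28.4%. Over all 7094 gene IDs with 5 loci the first 10% held 17.7%, 14.9% and 16.6% and the last 10% held 15.6%, 26.2% and 13.9%. The members' log2 ratio, downstream end over upstream end, was -0.74, 3.48 and 1.38, a mean of 1.37 ± 2.11 (SD, n = 3), with replicate 1 on the other side of 0. The library that lists a gene ID's outermost peak tends to have reads at that end by construction, as replicate 1 does upstream in RPL3. This limit holds for the calls per gene below too. With spans redrawn without replicate 1, the mean ratio of replicates 2 and 3 was 0.97 (SD 1.64), lower than either value above. An exact two-sided sign-flip test gave p = 0.5, and 0.25 is the smallest p it can give with 3 replicates. The downstream 50% of the span held 45.0%, 62.7% and 62.5% of member reads, against 44.1%, 52.7% and 44.9% over all.

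**Figure D5:**
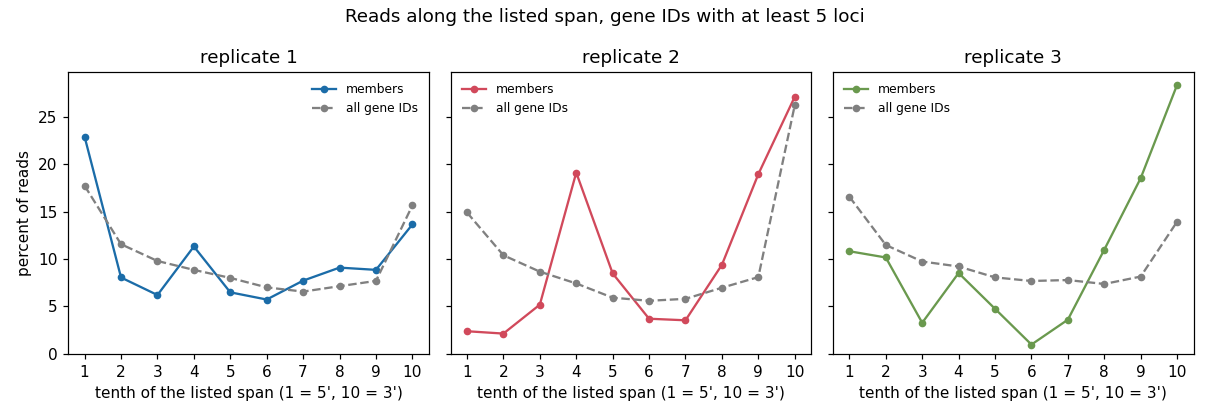
Percent of reads (y axis) in 10 equal parts of the listed span from 5′ to 3′ (x axis), for 35 members with at least 5 loci (solid) and for all such gene IDs (dashed), 1 panel per replicate. Members have 22.9% of reads in part 1 in replicate 1 but 2.39% in replicate 2, where part 4, which holds the tall RPS9 peak, is also high.

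Gene by gene, summed reads leaned to the 3′ end in 12 of 33 members tested, against a background of 25.6%, and to the 5′ end in 5, against 20% (two-sided exact binomial test, Benjamini-Hochberg adjusted). The median log2 ratio was 0.88 in members and 0.18 over all gene IDs tested. RPL3 had 93 downstream and 19 upstream reads (adjusted p = 7.2e-12, exact binomial test), but replicate 1 gave 0 against 19 and replicates 2 and 3 gave 70 against 0 and 23 against 0. Also called at the 3′ end were RPL7, RPS29, RPS15A, RPL18, RPL22, RPL13A, RPS7, RPS10 and RPS14.

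Among those leaning to the 5′ end of the span, RPS9 had 6 downstream and 97 upstream reads, with more upstream in each replicate. Its listed span is 17015 nt and its RefSeq gene 6790 nt, so the span cannot have both ends at those of the gene. The RPS9 call therefore describes the listed span and does not show a lean to the 5′ end of the gene. RPS23 had 3 against 27, RPS3 5 against 29, RPS25 7 against 28 and RPS24 9 against 26, and in each of these the 5′ reads came from replicate 1. A condition added after the data were seen required every replicate with reads at the ends to lean the same way. Under it 5 members stayed at the 3′ end of the span (RPL22, RPL7, RPS10 and RPS29 among them), against 18.1% of all gene IDs. RPS9, with the limit just given, alone stayed at the 5′ end of its span, against 14.1%. Without replicate 1 the counts were 3 and 1, and without replicate 3 they were 6 and 6. The shares over all gene IDs were not computed with a replicate left out, so these counts have no background. With each peak counted once, 1 member had enough peaks to test, so 0 were called at the 3′ end.

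Some peaks inside member spans are listed under other, short gene IDs. These were found by position, and no peak was compared with intron or snoRNA gene coordinates. Member peaks that overlap them stay in the counts above. RefSeq places 51 snoRNA genes inside 23 of the members. The lists carry 18 other gene IDs with a listed span of 58 to 297 nt on the same strand inside 13 members, and 10 of those 13 have a RefSeq snoRNA gene. These 18 IDs had 26 peaks with 79, 79 and 14 reads in replicates 1, 2 and 3, and 17 of the peaks overlapped a member's peak of the same replicate. The lists do not name them, so none is identified here. Members with a snoRNA gene had a median share of 0.00594% and those without 0.00471%. Per length the medians were 14.6 and 9.99 reads per kb per 1000000 listed reads. The length was the listed span or the RefSeq gene length, whichever was longer.

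RPS2 held the tallest of these small IDs. ENSG00000255513 had 23, 8 and 6 reads at chr16:2013657-2013935 on the minus strand, the only such ID seen in all 3 replicates, and the RPS2 locus over it had 30, 0 and 13. ENSG00000207405 had 15, 17 and 0 reads at chr16:2012973-2013107, and the RPS2 locus over it 17, 17 and 0. The RPS2 total includes the reads listed at these loci.

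RPL13A held 4 small IDs, and RefSeq also lists 4 snoRNA genes inside it (SNORD32A, SNORD33, SNORD34 and SNORD35A). The tallest, ENSG00000200259 at chr19:49994434-49994587, had 7, 8 and 0 reads, where RPL13A had 12 in replicate 1. ENSG00000199631 at chr19:49993877-49993997 had 11 reads in replicate 2, where RPL13A had 7. None of the RPL13A small IDs overlaps the RPL13A locus seen in all 3 replicates, which stands nearer the 3′ end.

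RPL23 shared a locus with ENSG00000199293, where RPL23 had 14 reads in replicate 1, and RPS7 shared one with ENSG00000252531, where RPS7 had 18, 5 and 0. Smaller shared loci, of 3 to 7 reads, lay in RPL5 (ENSG00000207523), RPS3 (ENSG00000207445), RPS29 (ENSG00000253459), RPL3 (ENSG00000209482) and RPL30 (ENSG00000207067). Longer IDs overlapped as well: ENSG00000270800, with a listed span of 133994 nt, shared 4 loci with RPS10, among them the RPS10 locus seen in all 3 replicates, and ENSG00000260342 shared loci of 12 and 6 reads with RPS15A in replicate 1. In all, 19 member loci in 12 members also stood under another ID and held 6.29%, 3.27% and 2.91% of member reads.

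The RPS9 span was not the only one to run past its gene. Listed spans of RPL22 (23481 nt against 14576 nt in RefSeq), RPL30 (6840 against 3825), RPS4X (5565 against 5207) and RPS25 (2701 against 2627) were also longer than the RefSeq gene, and 16 members spanned less than 50% of it. In these members the outer 10% of the span need not lie at the ends of the gene.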

How the data were processed

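Each replicate has 1 list without a header, with 8 columns: position, a name, a p-value, strand and a short stretch. The p-value is the authors' own as deposited, and was at most 0.0491. The name ends in a whole number of 3 or more after the Ensembl gene ID. It was read here as reads because its Spearman correlation with the p-value in member peaks was -0.996, -0.994 and -0.986. No source states this. Per the submitters' processing notes the build was hg19 and FastQC, SAMtools, STAR and bedtools were used; the sources used here give neither caller nor annotation. Peaks were listed per replicate.

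Symbols came from RefSeq (GRCh38.p14), whose table holds no Ensembl IDs. Each member with a peak took the ribosomal protein gene of its class on its chromosome and strand (strand checked for 45 of 58), one gene per ID, with the smallest squared distances and at most 3 Mb apart (largest 2867 kb). No coordinates were converted. Two-sided Fisher's exact tests ran on reads of each gene ID with 10 reads per pair, and two-sided exact binomial tests on the outer 10% of spans with 10 reads, each with Benjamini-Hochberg adjustment over all gene IDs. Loci needed an overlap of 1 nt. Log2 end ratios carry 0.5 reads per end. Python 3.11.15, SciPy 1.17.1 and pandas 2.3.3 were used, and both tests were tested on simulated data. The simulated reads were independent, with no variation between libraries beyond the changes put in. They therefore do not show how often calls between these replicates are false.

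Members and lists were chosen with earlier results of these data known. Named were the 15 members with the highest mean share, the 10 with the smallest adjusted p between libraries, loci in all 3 replicates, and up to 15 loci by reads also under another ID; those named outside this rule are marked or listed as calls. The lists of translation factors, nucleolar assembly factors, mitochondrial ribosomal proteins and cell type markers were not measured here, because the table pairs no symbol with their IDs, so the labelled cell line was not checked against markers. Some members that the rule names are not reported here by name; counts and sums include them.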

Additional observations from a re-analysis of the deposited data

How the results depend on the processing

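Of 50 alternatives, 35 left the result within its spread or within 1.5 times its count, and 15 did not. For the read share and the log2 end ratio the spread was the SD over replicates. It was 0.583 beside a share of 0.603% and 2.11 beside a ratio of 1.37. Limits this wide are hard to exceed, so the count of 35 says little about how stable these results are. The log2 end ratio kept its sign in each of its alternatives, but the balance of calls at the ends, 12 at 3′ and 5 at 5′, became 0 and 1 with each peak counted once and 6 and 6 without replicate 3. The members' share was 0.406% to 0.748% under the alternatives and 0.269% to 0.807% with a replicate left out. Members in every list fell to 20 where 10 reads per replicate were required. The share over all gene IDs was not computed at that limit, so this count has no background. Recurring member loci were 9.28% to 15.6% with a replicate left out, since fewer lists remain. The share over all loci was not computed with a replicate left out. Members called at the 3′ end were 0 with each peak counted once (1 member tested, 0 at an unadjusted p below 0.05 by the exact binomial test), 5 where replicates had to lean the same way, and 3 to 8 with a replicate left out. Those called at the 5′ end were 8 with the outer 20%, 1 with each peak counted once, 1 where replicates had to lean the same way, and 1 to 6 with a replicate left out. Apart from the common direction, the share over all gene IDs was not computed for these end calls. Members differing between libraries were 5 with each peak counted once, where at most 8 per pair could be tested, and 28 to 31 with a replicate left out. The log2 end ratio was 1.02 to 2.26, and 0.75 to 1.21 with a replicate left out. Omitting RPS9 and RPS19 (also for the subunit split, which turned in replicate 2), requiring 2 loci and requiring a common direction were added after the data were seen. The cause of these shifts was not tested. No paired analysis was possible because there is 1 group. Small counts limit most members: peaks under 3 reads are not listed, and most member peaks hold fewer than 10.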
